A study of Homo sapiens with 9 samples.

Results

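The widest autosomal peaks of accessible chromatin in shLOXL2 MDA-MB-231 cells are the peaks of at least 120 bp on chromosomes 1 to 22 in the ATAC-seq peak list named for these cells. They number 2486 of 55160 peaks in the whole list and of 53481 peaks on the autosomes, or 4.65% of the autosomal peaks and 9.70% of the bases these cover. They are set against the 30344 autosomal peaks of 55 bp, the shortest length in the list, which make up 56.7% of the autosomal peaks. The members were chosen by their length, which comes from the same reads as pileup, fold enrichment and q; those values are given as a description. Distance to H3K4ox peaks also rests on other libraries and did not enter the rule on length. The members and the quantities were still chosen with earlier results of these data known.

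The series comprises 9 libraries of MDA-MB-231, an established triple-negative breast cancer line. shLOXL2 cells carry a short hairpin RNA against the lysyl oxidase LOXL2, shControl cells are labelled as its control, and each condition has 1 ATAC-seq and 2 RNA-seq libraries. H3K4ox, histone H3 oxidised at lysine 4, was profiled by ChIP-seq in 2 replicates, with 1 ChIP-seq library for histone H3, in MDA-MB-231 cells for which the labels give no hairpin. The labels of both ATAC libraries cite the same peak list, whose peak names carry shLOXL2 alone, and its counterpart for shControl cells is not analysed here, so no peak below can be compared between the conditions. LOXL2 (ENSG00000134013) stood at 15.2 and 12.1 FPKM in the shLOXL2 RNA libraries, against 85.5 and 84.5 FPKM in the shControl libraries, so 16.1% remained and the groups did not overlap.

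In ATAC-seq, the Tn5 transposase inserts sequencing adapters into DNA that nucleosomes leave exposed, and a peak marks a stretch where such insertions pile up. Open stretches at active promoters and enhancers usually extend over the length of a nucleosome or more. H3K4ox is the product of LOXL2 acting on lysine 4 of histone H3, and the title of the series links it with chromatin condensation, the opposite state to the one ATAC-seq detects.

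The wide peaks were short in absolute terms and most were weak. Their length had a median of 135.5 bp and quartiles of 126 and 151 bp, with 194 bp at the 95th percentile and 357 bp at the longest. No peak of the autosomes therefore extended to the kilobase lengths of the H3K4ox peaks, whose shared set had a median of 3204.5 bp on the autosomes. Pileup, the authors' coverage signal at the summit, was a whole number in every peak of the list. It had a median of 5 in wide peaks, with quartiles of 4 and 6 and a maximum of 84, against a median of 4, quartiles of 4 and 5 and a maximum of 89 in 55 bp peaks. The means were 5.37 ± 3.51 in wide peaks and 4.23 ± 1.25 in 55 bp peaks (SD over peaks of 1 library, not replicates). The ranges of the classes overlapped from end to end, and the main contrast lay in the upper tail. A median of 5 was not particular to wide peaks. Peaks of 56 to 79 bp, which are no members, also had a median of 5, with a mean of 5.23. At 80 to 99 bp and at 100 to 119 bp the median was 4, with means of 4.79 and 4.58.

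A pileup of 8 or more was reached by 243 wide peaks, or 9.77% (95% interval 8.64 to 11.01), against 191 peaks of 55 bp, or 0.629% (0.544 to 0.725). Over all autosomal peaks the share was 2.83% (2.69 to 2.97). These and all later intervals of shares are exact Clopper-Pearson intervals. They cover counting error only, since peaks of 1 library share its reads and neighbours are not independent. With 1 list from 1 library there was no replicate of the ATAC values and no test. A pileup of 15 or more was found in 32 wide peaks (1.29%), in 13 peaks of 55 bp (0.0428%) and in 0.269% of all autosomal peaks. At the low end, 213 wide peaks (8.57%) and 6225 peaks of 55 bp (20.5%) had a pileup of 3, the lowest value in the list.

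**Figure D1:**
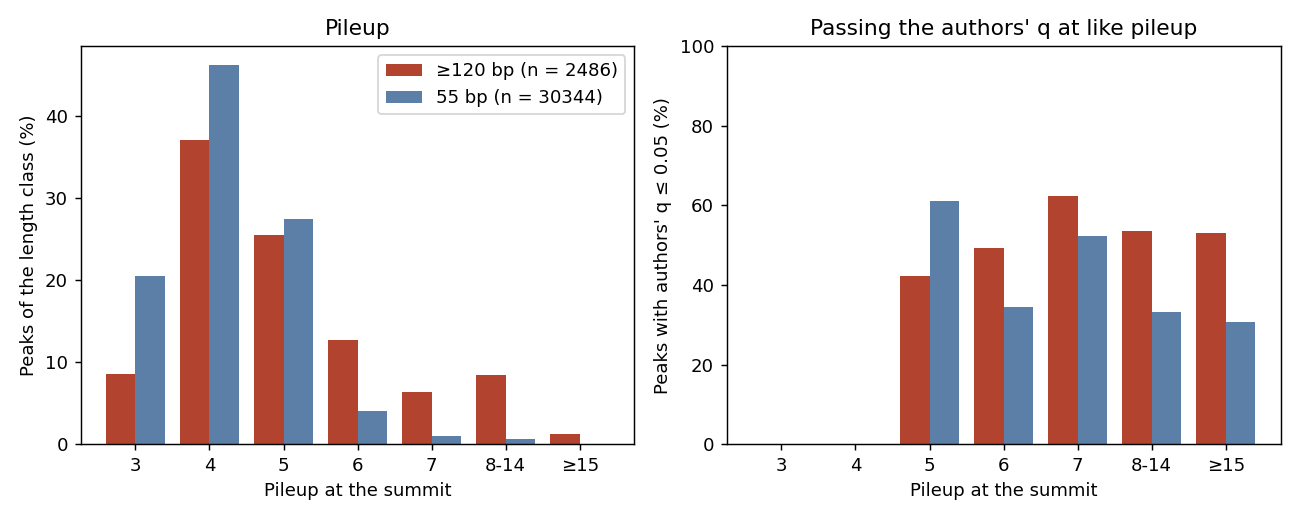
Left, the share of peaks of each length class (percent) by pileup at the summit, for wide peaks (red) and 55 bp peaks (blue); right, the share of peaks in the same pileup class whose authors' q was at most 0.05. Pileups of 6 or more hold a larger share of the wide peaks than of the 55 bp peaks, and at a pileup of 3 or 4 the share passing was 0% in both classes.

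Fold enrichment over the authors' background, which the sources used here do not name, differed less than pileup. Its median was 3.78 in wide peaks and 3.76 in 55 bp peaks, and the 95th percentile was 5.30 in wide peaks and 4.55 in 55 bp peaks. The authors' q, the false discovery rate of a peak, was at most 0.05 for 652 wide peaks (26.2%), against 5739 peaks of 55 bp (18.9%) and 23.9% of all autosomal peaks. At a q of at most 0.01 the counts were 183 wide peaks (7.36%, 95% interval 6.37 to 8.46), 183 peaks of 55 bp (0.603%, 0.519 to 0.697) and 3.89% of all autosomal peaks. At equal pileup the classes did not keep 1 order. With a pileup of 5, 42.2% of wide peaks and 61.0% of 55 bp peaks had a q of at most 0.05, while with a pileup of 6 it was 49.2% of wide peaks and 34.5% of 55 bp peaks, and with 8 to 14 it was 53.6% of wide peaks and 33.1% of 55 bp peaks.

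Nor did these shares rise steadily with length. The share with a q of at most 0.05 was 18.9% at 55 bp, 40.6% at 56 to 79 bp, 22.8% at 80 to 99 bp, 15.9% at 100 to 119 bp, 22.1% at 120 to 149 bp, 36.7% at 150 to 199 bp and 42.3% at 200 bp or more. Peaks of 56 to 79 bp, which are no members, thus passed about as often as the 97 longest members (95% interval 32.3 to 52.7). A pileup of 8 or more was held by 8.23% of the 1822 wide peaks of 120 to 149 bp, 12.2% of the 567 of 150 to 199 bp and 24.7% of the 97 of 200 bp or more. Across the wide peaks the median pileup in these length classes was 4, 5 and 6. Among lengths that are no members, a pileup of 8 or more was held by 5.52% at 56 to 79 bp, 4.83% at 80 to 99 bp and 5.05% at 100 to 119 bp. Much of the contrast with the 55 bp peaks was thus already present just above the shortest length.

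The threshold of 120 bp fell on no step in the list. The 463 peaks of 120 to 124 bp had a median pileup of 4, a median fold of 3.70 and a q of at most 0.05 in 20.95% of cases. The 526 peaks of 115 to 119 bp, just outside, had a median pileup of 4, a median fold of 3.598 and such a q in 16.9%. The summit lay within 55 bp of an end in 2318 wide peaks (93.2%), in 100% of 55 bp peaks and in 99.7% of all autosomal peaks. At a median length of 135.5 bp most positions of a wide peak lie that near an end, so this count says little on the summit. The median position of the summit, counted from the lower coordinate, was at 37.7% of the length in wide peaks. It was at 42.6% in 55 bp peaks and at 44.4% in all autosomal peaks.

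The 5 longest peaks were not the strongest. The longest spanned 357 bp on chromosome 18, at chr18:1720474-1720830 (GRCh37, as all coordinates here), with a pileup of 6, a fold of 5.30 and a q of 0.00893. The peak of 338 bp at chr1:86088805-86089142 had a pileup of 7, a fold of 2.95 and a q of 0.381. Next came 333 bp at chr2:420456-420788, with a pileup of 5, a fold of 4.52 and a q of 0.0494. On chromosome 1, the peak of 321 bp at chr1:2064480-2064800 had a pileup of 8 and a fold of 2.53 (q of 0.381), and that of 320 bp at chr1:236767669-236767988 had a pileup of 8 and a fold of 5.93 (q of 0.00149). Of these 5, 3 had a q of at most 0.05. None lay in a shared H3K4ox peak, the nearest being 12.3 kb away from the longest. No annotation of GRCh37 was used here, so no position is assigned to a gene, exon or promoter.

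High pileup and high fold fell on different wide peaks. The highest pileup, 84, belonged to a peak of 124 bp at chr10:42388307-42388430 with a fold of 1.44 and a q of 0.381. A pileup of 61 was found at chr9:67320779-67320906 with a fold of 2.41 and a q of 0.000228, and 44 at chr16:46407652-46407797 with a fold of 2.27 and a q of 0.0136. Pileups of 43 and 41 stood at chr2:89869793-89869962 and chr1:149035266-149035410, with folds of 1.77 and 1.95 and a q of 0.205 and 0.163. All 5 folds were below the median of the wide peaks. Whether the reads of these 5 peaks were placed correctly was not tested, so their pileups are not read as accessibility. Of the 32 wide peaks with a pileup of 15 or more, 18 had a fold under 3, the median fold of the 32 was 2.57, and 17 (53.1%) had a q of at most 0.05.

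Conversely, the 40 wide peaks with a fold of 6 or more had pileups of 7 to 15, a median of 8, and all had a q of at most 0.05. These lay on 16 chromosomes and had a median length of 152 bp. Only 3 wide peaks had both a pileup of 15 or more and a fold of 6 or more. They were chr11:3220582-3220758 and chr7:121380703-121380873, each with a pileup of 15, a fold of 8.63 and a q of 1.69e-08, and chr6:26351884-26352059, with a pileup of 15, a fold of 7.52 and a q of 5.78e-07. These 3 were chosen after their values were seen.

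Wide peaks were found on every autosome, and their number followed that of ATAC peaks in general. Per Mb between the outermost ATAC peaks of a chromosome there were from 0.375 wide peaks on chromosome 13 to 1.64 on chromosome 20. The 55 bp peaks had their lowest and highest densities on the same chromosomes, at 6.07 per Mb on chromosome 13 and 18.3 per Mb on chromosome 20. Across the 22 autosomes the densities of wide and of 55 bp peaks had a Spearman rho of 0.904, a description only, since both come from 1 library and the same spans. Chromosomes 22 and 19, with 1.396 and 1.37 wide peaks per Mb, came after chromosome 20, and chromosomes 18 and 5, with 0.501 and 0.597, were next to the lowest.

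As a share of ATAC peaks the chromosomes differed less. Over all autosomes there were 46.5 wide peaks per 1000 ATAC peaks. The share was highest on chromosome 22, at 60.1 per 1000 (49 of 815 peaks, 95% interval 44.8 to 78.7), and lowest on chromosome 18, at 35.5 per 1000 (39 of 1099 peaks, 25.4 to 48.2). Chromosome 1, with the most wide peaks, had 258 of 5394 peaks, or 47.8 per 1000 (42.3 to 53.9). The intervals of all 22 chromosomes included the autosomal value. The ratio of chromosome 22 to chromosome 18 was 1.69 (95% interval 1.11 to 2.58, by a normal approximation on the log scale for counting error). These chromosomes were picked as the extremes of 22 after their values were seen, which the interval does not take into account.

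**Figure D2:**
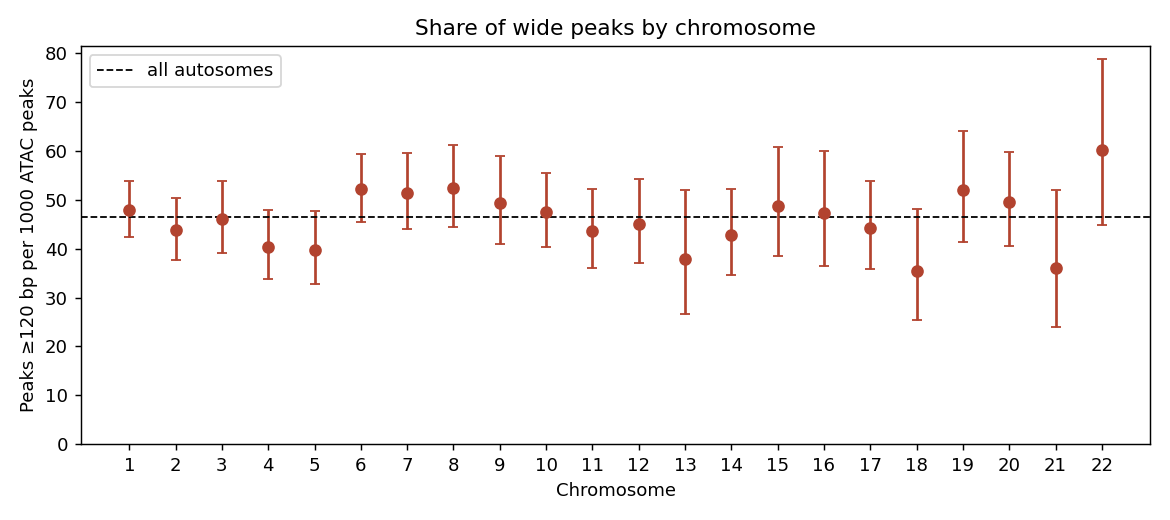
Wide peaks per 1000 ATAC peaks on each autosome, with exact 95% binomial intervals for counting error as bars and the value over all autosomes, 46.5, as a dashed line. Every interval crosses the dashed line, from chromosome 18 at 35.5 to chromosome 22 at 60.1.

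The share of wide peaks also rose with local density, over a range close to that between chromosomes. Across the 22 autosomes, this share and the number of ATAC peaks per Mb had a Spearman rho of 0.491, a description only. In windows of 1 Mb with 1 to 10 ATAC peaks, 31.9 of 1000 peaks were wide (121 of 3798, 95% interval 26.5 to 37.9). This share was 41.1 (38.2 to 44.2) in windows with 11 to 20 ATAC peaks, 49.4 (46.8 to 52.1) with 21 to 40 and 58.4 (52.5 to 64.8) with 41 or more. The intervals of these classes did not overlap one another, although the wide peaks are themselves counted in the density. Each class holds more ATAC peaks than most chromosomes do, which makes its interval narrower. Peaks of 55 bp went the other way, from 611 per 1000 in the sparsest class through 597 and 554 to 514 in the densest. H3K4ox also thinned out along this order, with a mean of 8.59, 8.38, 6.04 and 3.51 shared H3K4ox peaks per window from the sparsest to the densest class. The grouping by local density was chosen after the data were seen.

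**Figure D3:**
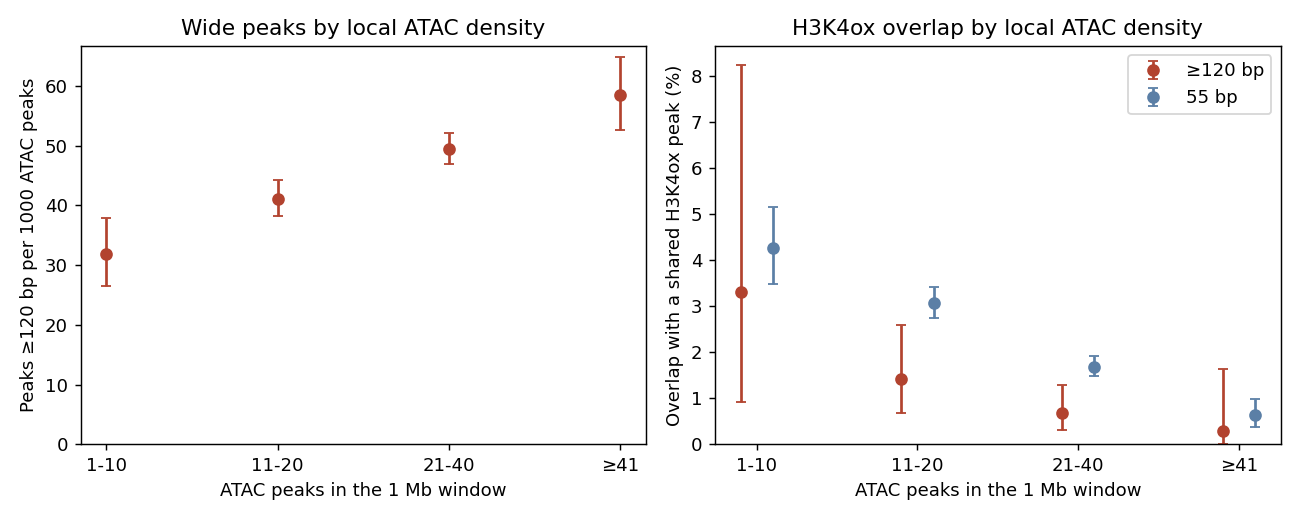
Left, wide peaks per 1000 ATAC peaks by the number of ATAC peaks in the 1 Mb window; right, the share of wide peaks (red) and of 55 bp peaks (blue) that overlap a shared H3K4ox peak in the same windows. Bars are exact 95% binomial intervals; the share of wide peaks goes up from 31.9 to 58.4 per 1000 with density, and the overlap with H3K4ox goes down in both classes.

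Few wide peaks lay close to another wide peak. A second wide peak stood within 10 kb of 109 wide peaks, or 4.38% (95% interval 3.61 to 5.26), while 2.82% of 55 bp peaks (2.64 to 3.01) had a wide peak as near. Within 1 kb the shares were 1.21% (0.816 to 1.72) for wide peaks and 0.412% (0.343 to 0.491) for 55 bp peaks, and within 100 kb 25.02% of wide and 20.4% of 55 bp peaks. The median distance to the nearest other wide peak was 270.2 kb from a wide peak (95% order-statistic interval 251.9 to 289.3) and 341 kb from a 55 bp peak (333.5 to 347). A neighbour of any length stood within 10 kb of 46.4% of wide peaks (44.4 to 48.4) and of 40.6% of 55 bp peaks (40.02 to 41.1). Wide peaks of at least 120 bp thus had neighbours, wide or of any length, more often than 55 bp peaks at these distances. With peaks of at least 150 bp the excess of wide neighbours within 10 kb was 0.529 percentage points, with a 95% interval of -0.161 to 1.69 that included 0.

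Chained at 10 kb, the wide peaks formed 52 clusters of 2 to 4 peaks, 49 of them pairs, and 2377 wide peaks stayed alone. The median cluster spanned 2.87 kb. A pileup of 8 or more was held by 16 of the 109 clustered wide peaks, or 14.7% (95% interval 8.63 to 22.7), and by 9.55% of the lone ones (8.40 to 10.8), and these intervals overlapped. Without the 3 clusters in which every peak had a pileup of 15 or more, at chr16:46391880-46407797, chr8:23177441-23191116 and chr8:23217605-23225848, it was 7 of 100 clustered peaks (2.86 to 13.9). That omission was chosen after the data were seen. Of 2727 windows of 1 Mb with an ATAC peak, 1456 held a wide peak and 36 held 5 or more, which together held 7.88% of the wide peaks. The window with the most lay on chromosome 7 from 158 to 159 Mb and held 10 wide peaks among 43 ATAC peaks, with a mean pileup of 5.4.

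The largest clusters differed in their pileup. A cluster of 4 wide peaks at chr16:46391880-46407797 had pileups of 40, 38, 37 and 44 and folds of only 1.65 to 2.27, with 16 ATAC peaks of any length in its 15.9 kb. The placement of its reads was not tested either. The other cluster of 4, at chr8:141120435-141134503, had pileups of 6, 6, 5 and 4 and folds of 2.58 to 5.29, near the values of lone wide peaks. A cluster of 3 at chr8:23177441-23191116 had pileups of 24, 20 and 26 and folds of 3.58, 3.43 and 2.40.

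That last cluster is part of a stretch of 70.3 kb, at chr8:23155571-23225848. The stretch was picked out after its values were seen, without a ranking of stretches across the list. The stretch held 14 ATAC peaks, 6 of them wide, and the 6 wide peaks had pileups of 20 to 31 and folds of 2.40 to 4.59, with a q of at most 0.05 in 5. These 6 are among the 32 wide autosomal peaks with a pileup of 15 or more. Only 1 of the 14 peaks had a pileup under 15, at 3. In the 100 kb on either side there were 6 peaks, all of 55 bp, with pileups of 3 or 4. The peak with the smallest q on the autosomes also lay here, although with 68 bp it is no member, at a pileup of 22 and a fold of 8.49. In the GRCh38.p14 annotation the targeted gene LOXL2 lies on chromosome 8. Whether the stretch falls within LOXL2 was not tested, since no GRCh37 annotation was used here.

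**Figure D4:**
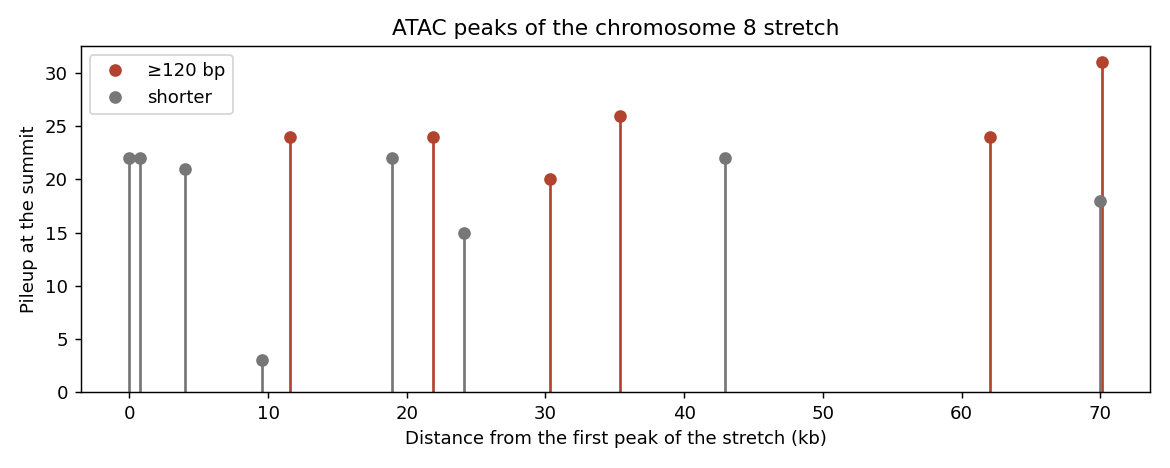
Pileup at the summit of each ATAC peak of the chromosome 8 stretch against its distance from the first peak (kb), with wide peaks in red and shorter peaks in grey. The 6 wide peaks have pileups of 20 to 31, and 1 shorter peak has a pileup of 3.

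Wide peaks overlapped H3K4ox less often than the shortest peaks did. The ATAC peaks are those of shLOXL2 cells, while the H3K4ox peaks come from cells for which the labels give no hairpin. An overlap or distance therefore compares positions and does not show both features in the same cells. A shared H3K4ox peak is a replicate 1 peak overlapped by replicate 2 over 1 bp or more; there were 21939, of which 20158 lay on the autosomes. Of the wide peaks, 24 (0.965%, 95% interval 0.620 to 1.43) overlapped such a peak, against 682 of the 55 bp peaks (2.25%, 2.08 to 2.42) and 2.03% of all autosomal ATAC peaks. The difference was -1.28 percentage points (95% interval -1.67 to -0.787). With each replicate's full list it was about the same, at 1.25% of wide and 2.54% of 55 bp peaks for replicate 1, and 1.21% of wide and 2.61% of 55 bp peaks for replicate 2.

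By length, the overlap was 2.25% at 55 bp, 1.91% at 56 to 79 bp, 1.94% at 80 to 99 bp, 1.38% at 100 to 119 bp, 1.10% at 120 to 149 bp (20 of 1822) and 0.705% at 150 to 199 bp (4 of 567). None of the 97 peaks of 200 bp or more overlapped a shared H3K4ox peak, which allows a share of up to 3.09% as 3 counts of 97 and up to 3.73% by the exact interval. The interval of the 55 bp peaks, 2.08 to 2.42, lay above that of the 120 to 149 bp class, 0.672 to 1.69. At the threshold itself there was no step. Of the 526 peaks of 115 to 119 bp, which are no members, 3 overlapped (0.570%). It was 2 of the 463 members of 120 to 124 bp (0.432%), so a low share was not confined to the wide peaks. On 18 of the 22 chromosomes the share was lower for wide than for 55 bp peaks, and on 4 it was higher, while 8 chromosomes had no overlapping wide peak at all. A chromosome without one counts as lower whatever the share of its 55 bp peaks, and 24 overlapping wide peaks do not resolve shares per chromosome. Had the wide peaks of each chromosome overlapped at the rate of its 55 bp peaks, 55.5 would have done so in place of 24.

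**Figure D5:**
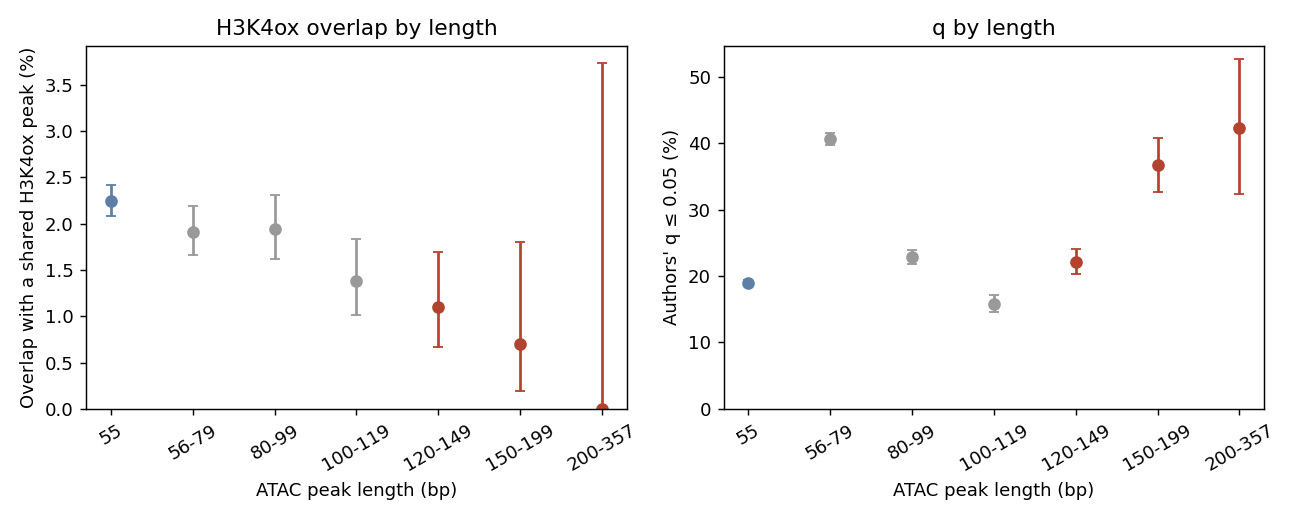
Share of autosomal ATAC peaks that overlap a shared H3K4ox peak (left) and share with an authors' q of at most 0.05 (right) by peak length, with exact 95% binomial intervals; 55 bp peaks are blue, wide peaks red and lengths between them grey. Overlap goes down from 2.25% at 55 bp to 0.705% at 150 to 199 bp, while the share passing the q is high at 56 to 79 bp and again at 200 bp or more.

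Local density and pileup moved with length, so the overlap was also set side by side within classes of each. In windows with 11 to 20 ATAC peaks, 1.41% of wide peaks (95% interval 0.679 to 2.58) and 3.07% of 55 bp peaks (2.74 to 3.42) overlapped. With 21 to 40 ATAC peaks it was 0.683% of wide peaks (0.313 to 1.29) and 1.69% of 55 bp peaks (1.49 to 1.91). In the sparsest and the densest windows the wide share was also the lower, but the intervals overlapped. It was 3.31% of wide peaks against 4.27% of 55 bp peaks in the sparsest windows, and 0.294% of wide peaks against 0.635% of 55 bp peaks in the densest. At a pileup of 5, 0.315% of wide peaks (2 of 635, 0.0382 to 1.13) and 2.29% of 55 bp peaks (1.98 to 2.64) overlapped. The intervals separated at that pileup and at no other. At a pileup of 4 the shares were 1.85% of wide peaks (17 of 921, 1.08 to 2.94) and 2.29% of 55 bp peaks (2.05 to 2.55). At a pileup of 3 they were 0.939% of wide peaks (0.114 to 3.35) and 2.27% of 55 bp peaks (1.91 to 2.67), and at 6 they were 0.635% of wide peaks (0.0770 to 2.27) and 1.84% of 55 bp peaks (1.17 to 2.75). At pileups of 7, of 8 to 14 and of 15 or more, 1, 0 and 0 wide peaks and 3, 1 and 1 peaks of 55 bp overlapped, too few to tell the classes apart.

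The 24 wide peaks in H3K4ox lay on 14 chromosomes, measured 123 to 173 bp and had pileups of 3 to 7 with a mean of 4.29, against a mean of 5.38 for the other 2462 wide peaks. A q of at most 0.05 was held by 2 of the 24 (8.33%) and by 26.4% of the others. The 3 with the highest pileup were chr5:120405727-120405862, with a pileup of 7 and a fold of 2.95, and chr18:33391909-33392042 and chr2:194698770-194698908, each with a pileup of 6 and a fold of 3.78. None of the 243 wide peaks with a pileup of 8 or more was among them, which allows a share of up to 1.23% as 3 counts of 243, above the 0.965% of all wide peaks, so a lower share was not detectable. The H3K4ox peaks that hold a wide peak, 24 in number and 0.119% of the shared autosomal ones, had a median length of 4675 bp and a median fold of 7.57, against 3204.5 bp and 6.44 over all shared autosomal peaks. Those that hold a 55 bp peak, 663 in number, had a median length of 4374 bp and a median fold of 6.46.

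Wide peaks also lay somewhat farther from H3K4ox, counting an overlap as a distance of 0. The median distance to the nearest shared H3K4ox peak was 85.0 kb for wide peaks (95% order-statistic interval 78.9 to 91.9) and 70.6 kb for 55 bp peaks (69.3 to 72.0). The quartiles were 27.03 and 209 kb for wide peaks and 23.5 and 188 kb for 55 bp peaks. On 14 of the 22 chromosomes the median was larger for wide peaks and on 8 it was smaller. Chromosome 6 had medians of 81.9 kb for wide and 51.4 kb for 55 bp peaks. Chromosome 8 was among those of the other direction, with 40.1 kb for wide and 47.0 kb for 55 bp peaks. The nearness to H3K4ox varied more between chromosomes than between lengths, from 40.1 kb on chromosome 8 to 465 kb on chromosome 22 for wide peaks. Within windows of like ATAC density the medians were 40.5 and 39.9 kb in the sparsest class, 55.8 and 51.3 kb with 11 to 20 ATAC peaks, 100.9 and 87.0 kb with 21 to 40, and 155 and 162 kb in the densest, each for wide and then for 55 bp peaks.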

How the data were processed

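Per the submitters' processing notes, Bowtie, Cufflinks and GRCh37 were used, without versions. Per the file headers, the authors deposited ATAC peaks with pileup (a coverage signal), fold enrichment (a ratio) and −log10 p-values and q-values. The peak caller, the background and any shift of reads for the transposase are not given in the sources used here, so the depth is unknown. The authors' H3K4ox lists, 1 per replicate and without a header, have tag counts, a score, a fold (a ratio) and a false discovery rate in percent. RNA values are FPKM, as deposited by the authors.

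The members and the quantities were chosen with earlier results of these data known. Peaks were filtered by chromosome and length, and distances were measured between edges, 0 for an overlap. Intervals are 95% Clopper-Pearson (shares) or binomial order-statistic (medians), and that of a difference in shares combines them. A count of 0 allows up to 3 counts. Named peaks are the 5 longest, the 5 with the highest pileup, the 3 with the highest pileup in shared H3K4ox, and the 3 largest clusters, with ties broken by pileup and then position; exceptions are marked in the text. No test was run on the 1 ATAC list, and RNA served only to check LOXL2. Distance and interval code was tested on simulated data. Python 3.11.15, numpy 2.4.6, pandas 2.3.3, scipy 1.17.1 and matplotlib 3.10.9 were used.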

Additional observations from a re-analysis of the deposited data

How the results depend on the processing

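Of 101 alternative values of 11 results, 80 stayed within the interval of the reported value (for the count of wide peaks within 1.5 times, for LOXL2 within 1 SD). The overlap with H3K4ox was lower for wide than for 55 bp peaks under all 13 alternatives, and the median distance larger under all 14 run, but its size was less stable. It was 14.3 kb as reported, 8.53 kb with peaks of at least 100 bp, 8.57 and 9.59 kb without H3K4ox replicate 2 and 1, and 7.40 kb with at least 150 bp, where the interval was -2.18 to 19.0 kb. With peaks of at least 100 bp there were 5815 wide peaks, their median pileup was 4, as in 55 bp peaks (a difference of 0), and 8.56% had a wide neighbour within 10 kb. With at least 150 bp there were 664, of which 1.20% had such a neighbour (a difference of 0.529 percentage points, -0.161 to 1.69), 0.602% overlapped H3K4ox and the median distance was 78.04 kb. With q scores at or above the median of autosomal peaks, 3.003% had a wide neighbour. Counting each cluster once leaves 0% by construction, and the difference from 55 bp peaks was then -2.81 percentage points. Neighbours within 1 kb were found for 1.21%, within 100 kb for 25.02% (a difference of 4.67), and of any length for 46.4% (5.84). The median distance was 92.9 kb at an H3K4ox false discovery rate of at most 1%, and 58.7 kb without either H3K4ox replicate (58.66 and 58.72 kb). The overlap without either replicate was 1.21 to 1.25%. Per Mb of span, the highest and lowest chromosomes differed by a ratio of 4.39, against 1.69 per 1000 ATAC peaks. Leaving out peaks with a pileup of 15 or more, which was chosen after seeing the data, moved no result past its interval. LOXL2 stood at 14.2 to 17.9% of control with each RNA library left out. No paired analysis was possible because no result comes from a test between samples. With 24 overlapping wide peaks, shares per chromosome are not resolved.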

Other observations

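Off the autosomes, chromosome X held 37 peaks of at least 120 bp among 1089 ATAC peaks, or 34.0 per 1000 (95% interval 24.0 to 46.5), with a median pileup of 5. Chromosome Y held 185 among 329, or 562 per 1000 (507 to 617), with a median pileup of 10 and a maximum of 30. Whether the reads of these peaks were placed correctly on chromosome Y was not tested, so its values are not read as accessibility. Unplaced and unlocalised sequences held 13 among 261, or 49.8 per 1000 (26.8 to 83.7), with a maximum pileup of 54. The autosomal value was 46.5 per 1000, which the intervals of chromosome X and of the unplaced sequences included and that of chromosome Y did not.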
